A study of Mus musculus with 30 samples.

Results

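The placental prolactin, pregnancy-specific glycoprotein (Psg) and placental cathepsin genes are multigene families of the rodent trophoblast. Members were taken by symbol, as every gene of the deposited count table named Prl followed by a digit from 2 to 8, a letter and a number, every Psg gene with a number, and Ctsj, Ctsm, Ctsq, Ctsr, Cts3, Cts6, Cts7 and Cts8. The rule found 46 of the 25400 genes, of which 25 were Prl, 13 Psg and 8 cathepsin genes. A level of at least 1 CPM (the usual unit of reads of a gene relative to the scaled total of its library) in at least 3 of the 24 libraries was reached by 18 of the 46, made up of 13 Prl, 2 Psg and 3 cathepsin genes. The filter on low counts kept 27 members for testing (17 Prl, 5 Psg and 5 cathepsin genes). Of the 19 members left out, 2 (*Prl3c1* and *Prl3a1*) had no read in any library, 6 had 1 to 7 reads over all 24 libraries, and 11 had between 11 and 97.

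Poly(A) RNA-seq was made from ES-derived neural progenitor cells (NPCs) of 8 lines with 3 libraries each. Beside wild type (WT) and *Mbd3* KO, 6 lines put a transgene into the KO, coding for MBD3a, MBD3ΔMBD (Mbd3a_delMBD in the labels, MBD3a without its methyl-CpG binding domain), MBD2a, MBD2aΔGR (Mbd2a_delGR, MBD2a without its glycine-arginine stretch), MBD2aR181C (MBD2a with a point mutation in the methyl-CpG binding domain) or MBD2t (a truncated isoform of MBD2). All lines are derivatives of mouse ESCs of mixed 129 and C57BL/6 background that carry a biotin ligase and a recombination site. The 6 constructs sit at that site, are biotin-tagged and run from the strong ubiquitous CAG promoter rather than from that of the endogenous gene. By Western blot of ESCs, the study reports comparable levels of endogenous MBD3 in WT and of tagged MBD3a in the KO. The *Mbd3* deletion, made with Cas9 and a pair of guides, is shared by all lines but WT. Libraries came from individually derived clones, except that the 3 MBD2t libraries were made from 1 clone, so their spread holds no difference between clones. Libraries are named here s01 to s24, as in the deposited table, which does not tie them to replicate numbers. The point mutant bears the names R181C, R191C and R64C in the labels, the text of the study and the deposited columns, and these were taken as 1 line. MBD2 and MBD3 are alternative subunits of NuRD, a chromatin complex with histone deacetylase and nucleosome remodelling activity, and the comparisons ask in which lines genes of a foreign lineage were read in cells grown as NPCs.

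In mouse and rat, an ancestral prolactin gene has expanded into a cluster of genes whose secreted hormones come from trophoblast cells and the decidua. The placental lactogens among them act through the prolactin receptor, while the proliferins and their relatives act on blood vessels, immune cells or the trophoblast itself and do not need that receptor. PSGs are secreted glycoproteins of the carcinoembryonic antigen family, made in large amounts by spongiotrophoblast and giant cells and active on maternal immune cells and platelets. The placental cathepsins are cysteine proteases that arose in rodents by duplication of a cathepsin L-like gene and are made by giant cells and spongiotrophoblast. The 3 families are known mainly for placenta.

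The libraries held 27993858 to 49392806 counted reads (median 36797095), so 3 reads correspond to 0.0607 to 0.115 CPM, and levels near or under this rest on few reads. *Mbd3* itself stood at 149 to 157 CPM in WT and 34.2 to 73.8 CPM in *Mbd3* KO. It stood at 168 to 198 CPM with MBD3a, at 423 to 496 CPM with MBD3ΔMBD and at 36.4 to 86.4 CPM in the 4 MBD2 lines. The labelled cell type was checked with 9 neural progenitor markers that were tested, among them *Pax6*, *Hes5*, *Nes* and *Fabp7*. Summed, these markers stood at 1212 to 1391 CPM in WT but only at 88.2 to 148 CPM in *Mbd3* KO, 102 to 205 CPM with MBD2a and 129.5 to 158 CPM with MBD2t, and all 9 were called lower in each of these 3 lines. The same sums were 1196 to 1341 CPM with MBD3a, 1184 to 1490 CPM with MBD3ΔMBD, 612 to 1241 CPM with MBD2aΔGR and 874 to 1348 CPM with MBD2aR181C.

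Most of the tested Prl genes and part of the placental cathepsin genes were higher in *Mbd3* KO and in the MBD2t line than in WT and in the other 5 construct lines. Of the summed Prl level in *Mbd3* KO, the near copies *Prl2c3* and *Prl2c2* made up 32.1% and 27.9%. The 25 Prl members together took 2.98, 8.83 and 5.99 CPM in WT. In *Mbd3* KO they took 222, 239 and 286 CPM. With MBD2t the Prl sum was 215, 155 and 97.1 CPM. The *Mbd3* KO and MBD2t libraries thus lay above all 18 others, and the ratio of means to WT was 42.0 and 26.2. The Prl sum was 3.45, 5.21 and 15.8 CPM with MBD2a, 2.35, 20.5 and 3.89 CPM with MBD3a and 4.24, 4.34 and 12 CPM with MBD3ΔMBD. It was 3.38, 13.1 and 14.6 CPM with MBD2aR181C and 0.553, 1.46 and 1.08 CPM with MBD2aΔGR. MBD2aΔGR was the only line in which the Prl sums of all 3 libraries were below those of all 3 WT libraries.

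The 8 placental cathepsins followed a like order. Their sum was 1.13, 1.87 and 1.87 CPM in WT, 16.6, 30.6 and 22.3 CPM in *Mbd3* KO and 26.3, 21.5 and 9.73 CPM with MBD2t, which is 14.3 and 11.8 times the WT mean. With MBD2a the cathepsin sum was 0.921, 0.678 and 3.92 CPM and with MBD2aΔGR 0.276, 0.179 and 0.138 CPM. The sum of the 13 Psg genes, most of it *Psg29* in WT, separated the lines less. It was 2.01, 6.99 and 4.07 CPM in WT, 3.12, 6.95 and 5.26 CPM in *Mbd3* KO and 9.25, 5.57 and 3.9 CPM with MBD2t, and the 3 groups overlapped. Without *Psg29* neither line overlapped with WT, since the other 12 Psg genes together took 0.617, 1.62 and 1.41 CPM in WT, 2.09, 2.72 and 3.09 CPM in *Mbd3* KO and 2.81, 2.23 and 1.7 CPM with MBD2t. The lowest MBD2t library was close to the highest WT library. Unlike for the Prl genes, libraries of other lines reached the *Mbd3* KO range, with 2.94 CPM in MBD3a library s08 and 2.47 CPM in MBD2aR181C library s20. The Psg sum was 0.921, 0.589 and 2.04 CPM with MBD2a and 0.584, 0.983 and 0.72 CPM with MBD2aΔGR. In bulk RNA a higher level in a few cells and a lower level in many cannot be told apart, and neither can fewer cells of a type and less RNA per cell.

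**Figure D1:**
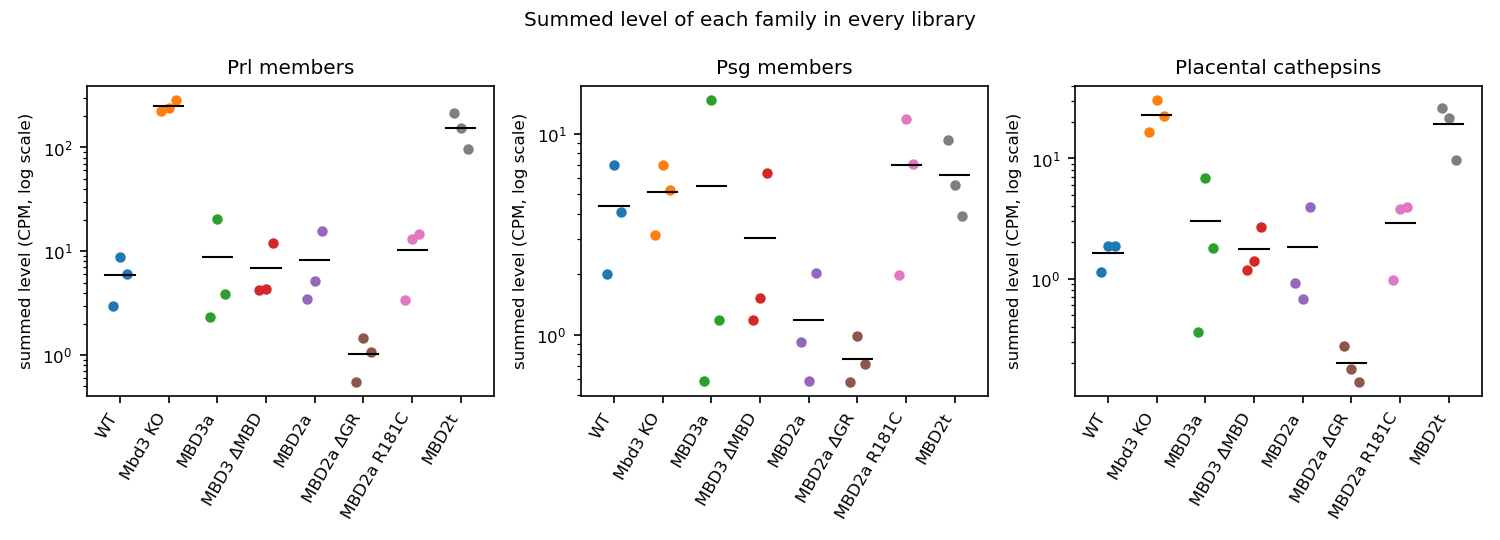
Summed level of the 25 Prl, 13 Psg and 8 placental cathepsin members in each of the 24 libraries, in CPM on a log axis, with a point per library and a bar at the mean of each line. The Prl sums of *Mbd3* KO (222 to 286 CPM) and MBD2t (97.1 to 215 CPM) lie above all other libraries, of which the highest has 20.5 CPM, while the Psg sums of *Mbd3* KO and WT, which include *Psg29*, overlap.

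Tests used edgeR's quasi-likelihood approach over 16582 genes, and a member was called at a Benjamini-Hochberg adjusted p under 0.05 with an absolute log2 fold change above 1. In *Mbd3* KO against WT, 20 of the 27 tested members were called higher and 0 lower, where 19.6% of all genes tested were called higher and 14.2% lower. The 20 were 15 Prl genes, *Psg17*, *Psg19*, *Ctsj*, *Ctsq* and *Ctsr*. In 21 of the 27 members every *Mbd3* KO library was above every WT library, which held for 31.1% of all genes tested. The median log2 fold change of the tested members was 3.89, against -0.03 over all genes tested. A member could pass the filter through its reads in a single line, so the count and the median describe the 27 and not all 46. The 0 lower calls stand beside 0 lower calls by DESeq2, and 21 members had an unadjusted p under 0.05, as had 64.1% of all genes tested.

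The Prl members with most reads were the proliferins *Prl2c3* (chr13:12883089-12892345 on mm9, minus strand) and *Prl2c2* (chr13:13088393-13097659, minus strand), which promote the growth of blood vessels and mark trophoblast giant cells. *Prl2c3* stood at 0.161, 1.13 and 0.341 CPM in WT, 82.5, 69.7 and 87.2 CPM in *Mbd3* KO and 70.1, 48 and 31.5 CPM with MBD2t. It stood at 0.294, 0.957 and 0.208 CPM with MBD3a, 0.917, 0.288 and 0.827 CPM with MBD3ΔMBD, 0.576, 1.71 and 4.2 CPM with MBD2a, 0.0307, 0.357 and 0.194 CPM with MBD2aΔGR and 0.34, 0.483 and 1.06 CPM with MBD2aR181C. The *Mbd3* KO and MBD2t libraries were all at least 31.5 CPM, and none of the other 18 was above 4.2 CPM. The log2 fold change against WT was 7.21 ± 0.61 (SE, edgeR adjusted p = 5.56e-08) in *Mbd3* KO and 6.53 ± 0.60 (SE, edgeR adjusted p = 1.47e-07) with MBD2t.

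*Prl2c2* stood at 0.215, 1.02 and 0.268 CPM in WT, 69.8, 63.5 and 74.9 CPM in *Mbd3* KO and 58.2, 40.2 and 26.4 CPM with MBD2t. Its levels were 0.261, 0.991 and 0.208 CPM with MBD3a, 0.65, 0.288 and 0.681 CPM with MBD3ΔMBD, 0.518, 1.53 and 3.9 CPM with MBD2a, 0.0307, 0.208 and 0.249 CPM with MBD2aΔGR and 0.255, 0.483 and 1.01 CPM with MBD2aR181C. The same 6 libraries were high as for *Prl2c3*, but the 2 genes are near copies and their values are not independent. Over their 675 coding bases they differ at 3 positions (14, 200 and 319, counted from the first base of the start codon), an identity of 99.6%. Of all 150-base windows of the *Prl2c3* transcript, the length of a read, 50.2% occur without a mismatch in another gene, in this case *Prl2c2*, and the share for *Prl2c2* is 41.4%. The sources used here do not say how reads with several matches were counted. The ratio of *Prl2c3* to *Prl2c2* reads was 1.10 to 1.21 over the 6 *Mbd3* KO and MBD2t libraries. The first 60 coding bases are shown to make clear how little separates the 2 genes, with the only base that differs in capitals, from the annotated transcripts on mm9.
Prl2c2: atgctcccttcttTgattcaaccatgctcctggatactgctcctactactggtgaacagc
Prl2c3: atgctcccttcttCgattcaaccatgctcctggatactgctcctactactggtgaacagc

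Another proliferin gene of the same small cluster, *Prl2c5* (chr13:13274982-13284190, plus strand), shares 94.9% of its aligned coding bases with *Prl2c3*, and none of its 150-base windows occurs in another gene. It stood at 0.322, 0.908 and 0.852 CPM in WT, 8.75, 11.2 and 11.1 CPM in *Mbd3* KO and 9.44, 6.39 and 3.54 CPM with MBD2t. It was at 0.228, 3.52 and 0.729 CPM with MBD3a, 0.191, 0.518 and 1.27 CPM with MBD3ΔMBD, 0.259, 0.206 and 1.61 CPM with MBD2a, 0.0614, 0.179 and 0.0277 CPM with MBD2aΔGR and 0.404, 2.47 and 2.46 CPM with MBD2aR181C. The rise of this gene without shared windows in *Mbd3* KO had a log2 fold change of 3.89 ± 0.70 (SE, edgeR adjusted p = 8.88e-05). All 3 *Mbd3* KO libraries were above all libraries of WT and of the lines other than MBD2t, and 1 MBD2t library (3.54 CPM) was level with the highest MBD3a library (3.52 CPM).

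The placental lactogens are the members that bind the prolactin receptor. *Prl3d1* (chr13:27186081-27192124, plus strand), placental lactogen I and the hormone of early giant cells, stood at 0.0268, 0.413 and 0.17 CPM in WT, 15.8, 25.8 and 36.6 CPM in *Mbd3* KO and 17.6, 13.7 and 8.92 CPM with MBD2t. It stood at 0.163, 0.513 and 0.278 CPM with MBD3a, 0.153, 0.69 and 0.827 CPM with MBD3ΔMBD, 0.144, 0.236 and 0.484 CPM with MBD2a, 0, 0.119 and 0.166 CPM with MBD2aΔGR and 0.127, 0.161 and 0.212 CPM with MBD2aR181C. Outside *Mbd3* KO and MBD2t no library reached 1 CPM, whereas the lowest of these 6 libraries had 8.92 CPM. The log2 fold change was 7.0 ± 0.51 in *Mbd3* KO and 6.04 ± 0.52 with MBD2t (SE, edgeR adjusted p = 7.61e-09 and adjusted p = 4.43e-08).

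Its close copies *Prl3d2* (chr13:27213548-27219415) and *Prl3d3* (chr13:27248659-27254459), both on the plus strand and annotated as further placental lactogen I genes, were lower but had the same pattern. *Prl3d2* stood at 0.0268, 0.0825 and 0.073 CPM in WT, 4.75, 7.37 and 9.76 CPM in *Mbd3* KO and 5.12, 3.47 and 2.43 CPM with MBD2t, and at 0 to 0.306 CPM in the other 15 libraries. *Prl3d3* stood at 0.0268, 0.0275 and 0.122 CPM in WT, 4.43, 6.57 and 10.2 CPM in *Mbd3* KO and 4.28, 3.21 and 2.06 CPM with MBD2t, and at 0 to 0.438 CPM in the other 15. Windows of 150 bases that occur in another gene made up 9.84% of *Prl3d1*, 30.6% of *Prl3d2* and 24.4% of *Prl3d3*, so part of the reads of the 2 lower genes cannot be placed with certainty. Their coding identity to *Prl3d1* is 97.9% and 98.7%. *Prl3b1*, placental lactogen II, the later hormone of the same receptor, which like *Prl4a1*, *Prl6a1*, *Prl7b1* and *Prl8a9* was given values after these were seen, stood at 0.0268, 0.0825 and 0.122 CPM in WT, 0.60, 2.26 and 2.49 CPM in *Mbd3* KO and 3.41, 1.25 and 0.283 CPM with MBD2t. *Mbd3* KO differed from WT by 4.47 ± 0.96 (SE, edgeR adjusted p = 0.000463) on the log2 scale, and MBD2t was called too, although 1 MBD2t library was below an MBD2a library with 0.576 CPM.

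*Prl7d1* (chr13:27800885-27808606, minus strand), proliferin-related protein, which counters the proliferins on blood vessels, had more reads in WT than any other Prl member. It stood at 0.59, 2.04 and 1.14 CPM in WT, 14.4, 23.3 and 22.2 CPM in *Mbd3* KO and 24.8, 20.1 and 10.7 CPM with MBD2t. It stood at 0.489, 4.51 and 0.937 CPM with MBD3a, 0.726, 0.633 and 2.68 CPM with MBD3ΔMBD, 0.662, 0.53 and 2.04 CPM with MBD2a, 0.0307, 0.179 and 0.0831 CPM with MBD2aΔGR and 0.828, 4.11 and 4.21 CPM with MBD2aR181C. *Mbd3* KO and MBD2t lay above all other libraries, with log2 fold changes of 4.0 ± 0.66 and 3.88 ± 0.66, and MBD2aΔGR lay below all WT libraries, a difference of -3.63 ± 1.32 (SE, edgeR adjusted p = 0.0866) that did not pass the test.

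*Prl2a1* (chr13:27893523-27900598, plus strand), a prolactin-like protein of the placenta, stood at 0.456, 1.13 and 0.95 CPM in WT, 13.6, 17.3 and 19 CPM in *Mbd3* KO and 8.3, 9.83 and 5.98 CPM with MBD2t. It stood at 0.294, 2.26 and 0.278 CPM with MBD3a, 0.229, 0.604 and 1.56 CPM with MBD3ΔMBD, 0.374, 0.471 and 1.96 CPM with MBD2a, 0.0307, 0.149 and 0.0277 CPM with MBD2aΔGR and 0.297, 1.53 and 1.14 CPM with MBD2aR181C. The *Mbd3* KO libraries were above the MBD2t libraries without overlap, yet the difference was not called, with a log2 fold change of -1.05 ± 0.44 (SE, edgeR adjusted p = 1). *Prl4a1*, prolactin-like protein A, which acts on uterine natural killer cells, stood at 0.215, 0.385 and 0.0974 CPM in WT and 1.92, 4.23 and 4.05 CPM in *Mbd3* KO. The remaining called Prl genes *Prl2b1*, *Prl2c1*, *Prl5a1*, *Prl7a1* and *Prl8a9* ran from 0 to 0.330 CPM in WT and from 0.400 to 3.25 CPM in *Mbd3* KO. *Prl8a9* had no read in any of the 3 WT libraries and 0.915, 0.686 and 0.899 CPM in *Mbd3* KO, so it was at least 10.6-fold higher there and at least 5.05-fold higher with MBD2t, against a floor of 3 reads per WT library.

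The 2 tested Prl genes without a call in *Mbd3* KO were *Prl6a1* and *Prl7b1*. *Prl6a1*, which overlaps *Gm11357* on the same strand, stood at 0.295, 0.715 and 1.31 CPM in WT and 0.429, 1.5 and 1.22 CPM in *Mbd3* KO, and these groups overlap. *Prl7b1* stood at 0.0268, 0.11 and 0 CPM in WT, 0.114, 0.62 and 0.159 CPM in *Mbd3* KO and 0.728, 0.663 and 0.445 CPM with MBD2t, with a log2 fold change of 2.77 ± 1.23 (SE, edgeR adjusted p = 0.0538) in *Mbd3* KO and 3.7 ± 1.06 (SE, edgeR adjusted p = 0.00397) with MBD2t. An untested member was chosen for mention after its values were seen, since its direction was the opposite. *Prl8a2*, decidual prolactin-related protein, a hormone of the decidua and trophoblast, had 13, 3 and 9 reads in WT, 0, 0 and 2 in *Mbd3* KO and 0, 0 and 0 with MBD2t. It had 0, 1 and 0 reads with MBD2a and 11, 6 and 5 with MBD3ΔMBD. Its 97 reads in all libraries fell short of the filter, and it was called lower in *Mbd3* KO where no filter was used and, since it then passed the filter, where any 1 WT or *Mbd3* KO library other than s01 was left out.

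**Figure D2:**
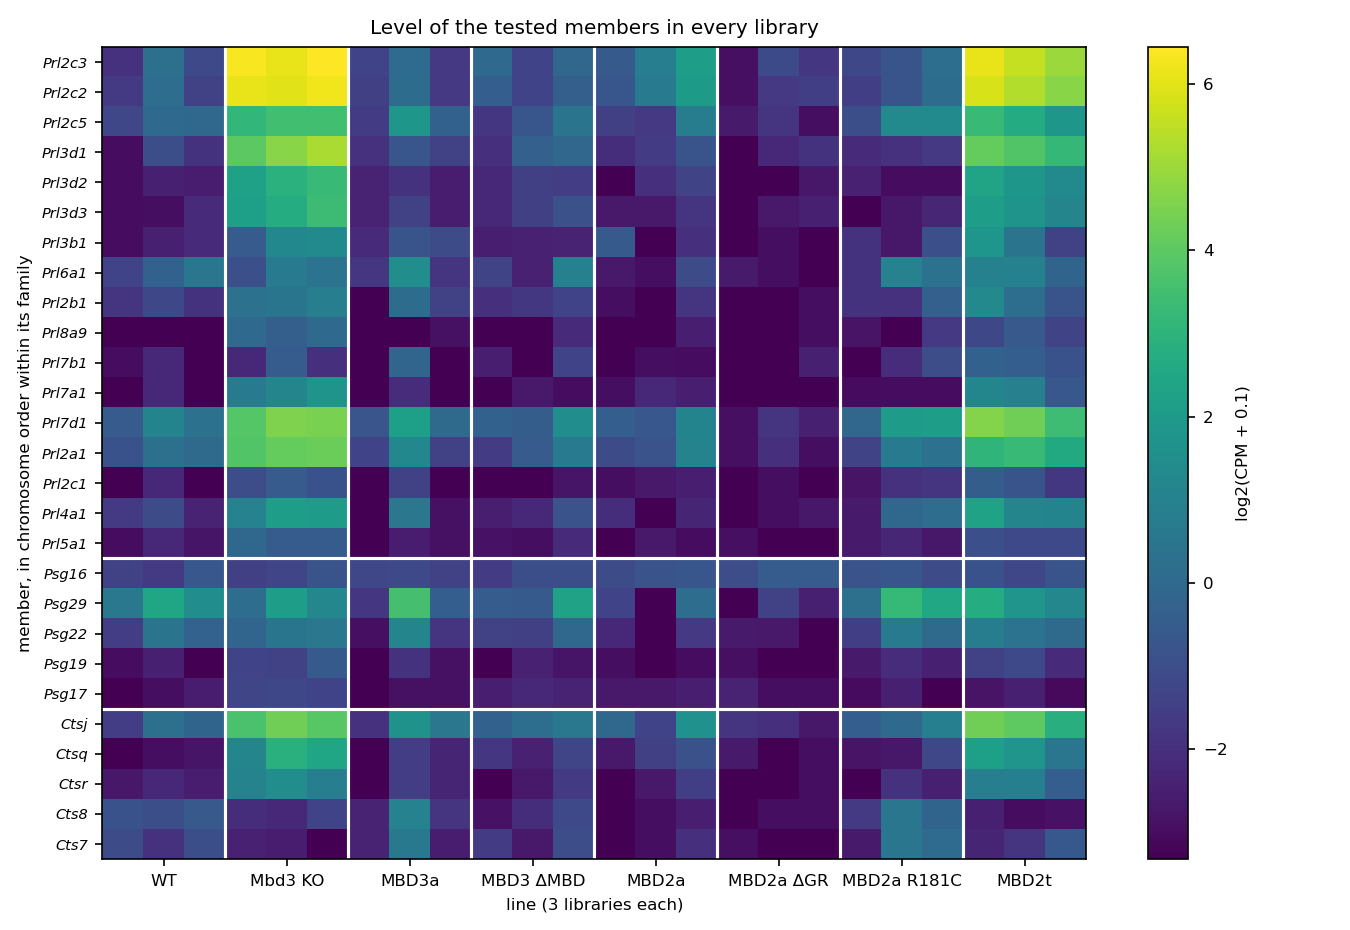
Level of the 27 tested members in the 24 libraries as log2(CPM + 0.1), with members in rows by chromosome order within each family and 3 libraries per line in columns, white lines between lines and families. In the Prl block the *Mbd3* KO and MBD2t columns are brighter than the WT columns for the 15 genes called in *Mbd3* KO, although *Prl2c1*, *Prl5a1* and *Prl8a9* stay under 1 CPM. *Psg29* and *Psg22* are about as bright in WT as in *Mbd3* KO, and most Prl members are dark in the MBD2aΔGR columns.

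On a scale of CPM per kilobase of exons, which allows genes to be set against each other, the order in *Mbd3* KO began with *Prl2c3* (93.9 ± 10.7 CPM per kb, SD, n = 3) and *Prl2c2* (81.7 ± 6.68), whose libraries overlapped. Below them came *Prl3d1* (30.7 ± 12.2), *Prl2a1* (18.8 ± 3.1), *Prl7d1* (18 ± 4.41) and *Ctsj* (12.4 ± 3.14), each overlapping the next. *Prl2c5* (8.79 ± 1.17) was below *Ctsj* without overlap, and *Prl3d2* and *Prl3d3* did not differ from it beyond their spread. In WT the highest member was *Prl7d1* with 1.14 ± 0.659 CPM per kb, and each of the following 11 overlapped the one above it. *Prl2c3* made up 32.1% and *Prl2c2* 27.9% of the Prl sum in *Mbd3* KO, against 9.16% and 8.43% in WT, where *Prl7d1* had the largest share with 21.2%.

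Among the Psg genes, the most abundant in WT had levels that overlapped those in *Mbd3* KO, while *Psg17* and *Psg19*, both sparse in WT, were called higher. *Psg29* (chr7:17788826-17801105, plus strand), a secreted Psg, made up 72.0% of the Psg sum in WT and 48.4% in *Mbd3* KO. It stood at 1.4, 5.36 and 2.65 CPM in WT, 1.03, 4.23 and 2.17 CPM in *Mbd3* KO and 6.45, 3.34 and 2.2 CPM with MBD2t. It stood at 0.196, 11.7 and 0.66 CPM with MBD3a, 0.612, 0.575 and 4.89 CPM with MBD3ΔMBD, 0.288, 0 and 1.02 CPM with MBD2a, 0, 0.268 and 0.0831 CPM with MBD2aΔGR and 1.1, 9.28 and 5.5 CPM with MBD2aR181C. The log2 fold change in *Mbd3* KO was -0.30 ± 1.00 (SE, edgeR adjusted p = 0.81), and its sign turned without WT library s02 or without *Mbd3* KO library s04. All MBD2a and MBD2aΔGR libraries were below all WT libraries, with differences of -2.76 ± 1.30 (SE, edgeR adjusted p = 0.0786) and -4.7 ± 1.71 (SE, edgeR adjusted p = 0.0889) that did not pass the test.

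*Psg22* (chr7:19303439-19312597, plus strand), the Psg of giant cells, stood at 0.242, 1.24 and 0.73 CPM in WT, 0.80, 1.31 and 1.35 CPM in *Mbd3* KO and 1.64, 1.22 and 0.93 CPM with MBD2t, with overlap of all 3 groups. It stood at 0.0326, 2.08 and 0.174 CPM with MBD3a, 0.268, 0.259 and 0.876 CPM with MBD3ΔMBD, 0.115, 0 and 0.204 CPM with MBD2a, 0.0614, 0.0596 and 0 CPM with MBD2aΔGR and 0.255, 1.58 and 0.953 CPM with MBD2aR181C. *Psg16* (chr7:17659389-17718799, plus strand), a Psg also known from brain, varied little between the lines. It stood at 0.268, 0.22 and 0.536 CPM in WT and 0.257, 0.31 and 0.476 CPM in *Mbd3* KO, and its level in the other 18 libraries ran from 0.229 to 0.625 CPM.

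The 2 Psg genes that rose in *Mbd3* KO, *Psg19* (chr7:19374474-19383859) and *Psg17* (chr7:19399286-19406956), are neighbours on the minus strand at the end of the cluster, are best known from spongiotrophoblast and had few reads. *Psg19* stood at 0.0268, 0.0825 and 0 CPM in WT, 0.286, 0.266 and 0.582 CPM in *Mbd3* KO and 0.27, 0.345 and 0.121 CPM with MBD2t, and at 0 to 0.171 CPM in the other 15 libraries. *Psg17* stood at 0, 0.0275 and 0.073 CPM in WT, 0.314, 0.332 and 0.291 CPM in *Mbd3* KO and 0.0416, 0.0795 and 0.0202 CPM with MBD2t, and at 0 to 0.115 CPM in the other 15. *Psg19* was therefore high in both lines, whereas the *Psg17* libraries of MBD2t overlapped WT and lay below all *Mbd3* KO libraries. The log2 fold changes in *Mbd3* KO were 3.3 ± 0.77 (SE, edgeR adjusted p = 0.000555) for *Psg19* and 3.05 ± 0.59 (SE, edgeR adjusted p = 5.29e-05) for *Psg17*. The 8 untested Psg genes had 11 to 39 reads each over all libraries.

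Among the 5 tested placental cathepsins, 3 neighbouring genes rose and 2 did not. *Ctsj* (chr13:61101639-61107277, minus strand), a placental cysteine protease, stood at 0.242, 1.13 and 0.779 CPM in WT, 12.4, 20.2 and 14.8 CPM in *Mbd3* KO and 19.9, 16.2 and 7.1 CPM with MBD2t. It stood at 0.163, 3.04 and 1.35 CPM with MBD3a, 0.726, 1.06 and 1.39 CPM with MBD3ΔMBD, 0.863, 0.295 and 3.01 CPM with MBD2a, 0.184, 0.149 and 0.0554 CPM with MBD2aΔGR and 0.658, 0.912 and 1.77 CPM with MBD2aR181C. The 6 libraries of *Mbd3* KO and MBD2t were above all others, with log2 fold changes of 4.46 ± 0.66 and 4.32 ± 0.65 (SE, edgeR adjusted p = 1.3e-05 and adjusted p = 1.82e-05). *Ctsq* (chr13:61136388-61141992, minus strand), a marker of sinusoidal giant cells, stood at 0, 0.0275 and 0.0487 CPM in WT, 2.06, 7.19 and 5.42 CPM in *Mbd3* KO and 4.43, 3.29 and 1.31 CPM with MBD2t. It was at 0, 0.239 and 0.104 CPM with MBD3a, 0.191, 0.0863 and 0.316 CPM with MBD3ΔMBD, 0.0576, 0.265 and 0.433 CPM with MBD2a, 0.0614, 0 and 0.0277 CPM with MBD2aΔGR and 0.0425, 0.0537 and 0.318 CPM with MBD2aR181C. Its log2 fold change of 7.39 ± 0.79 (SE, edgeR adjusted p = 7.75e-08) in *Mbd3* KO rests on 1 WT library without a read and 2 with 0.0275 and 0.0487 CPM. *Ctsr* (chr13:61260575-61265617, minus strand) stood at 0.0537, 0.11 and 0.073 CPM in WT, 1.94, 2.7 and 1.69 CPM in *Mbd3* KO, 1.73, 1.78 and 0.647 CPM with MBD2t and 0 to 0.255 CPM in the other 15 libraries.

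*Cts8* (chr13:61348108-61356709) and *Cts7* (chr13:61453822-61459531), giant cell and spongiotrophoblast proteases on the minus strand of the same cluster, did not rise. *Cts8* stood at 0.456, 0.413 and 0.56 CPM in WT, 0.143, 0.111 and 0.291 CPM in *Mbd3* KO and 0.0832, 0.0265 and 0.0404 CPM with MBD2t. It stood at 0.0978, 1.91 and 0.174 CPM with MBD3a, 0.0382, 0.144 and 0.341 CPM with MBD3ΔMBD, 0, 0.0295 and 0.0765 CPM with MBD2a, 0, 0.0298 and 0.0277 CPM with MBD2aΔGR and 0.212, 1.34 and 0.794 CPM with MBD2aR181C. The *Mbd3* KO libraries were below all WT libraries, and the log2 fold change of -1.41 ± 0.80 (SE, edgeR adjusted p = 0.131) was not called, although it was in a fit of only these 2 lines. *Cts7* stood at 0.376, 0.165 and 0.414 CPM in WT, 0.0858, 0.0664 and 0 CPM in *Mbd3* KO, 0.104, 0.186 and 0.546 CPM with MBD2t, 0, 0.0295 and 0.153 CPM with MBD2a, 0.0978, 1.44 and 0.0694 CPM with MBD3a and 0.0637, 1.31 and 0.979 CPM with MBD2aR181C. It stood at 0.229, 0.0575 and 0.389 CPM with MBD3ΔMBD and 0.0307, 0 and 0 CPM with MBD2aΔGR. Its *Mbd3* KO libraries too were below WT, with a log2 fold change of -2.59 ± 1.39 (SE, edgeR adjusted p = 0.111) that was not called. Within this cluster of 569.788 kb the genes with a call (*Ctsj*, *Ctsq* and *Ctsr*) are the 3 with the lowest coordinates. The next gene, *Cts6*, was untested and is named after its reads were seen. It had 1, 13 and 4 reads in *Mbd3* KO, 4, 3 and 1 with MBD2t and none in any other line.

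**Figure D3:**
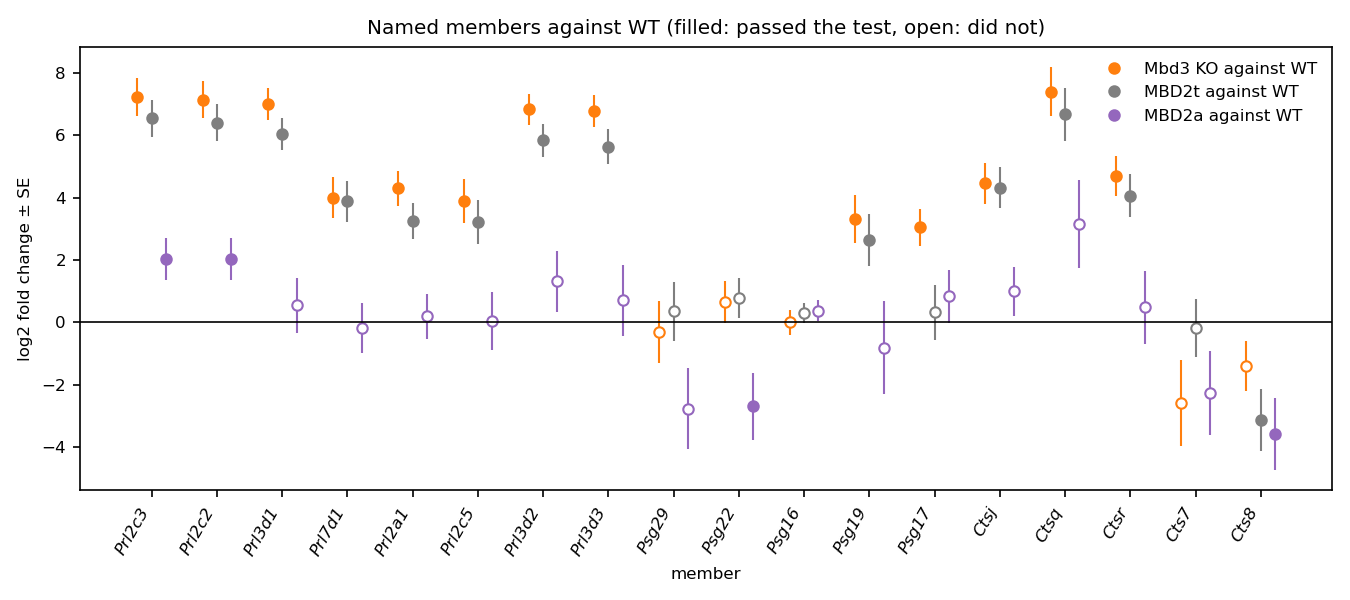
Log2 fold change against WT with its standard error for the 18 members chosen by level, in *Mbd3* KO, MBD2t and MBD2a, filled where the test was passed and open where it was not. The *Mbd3* KO and MBD2t values lie between 3.21 and 7.39 for the 8 Prl genes, *Ctsj*, *Ctsq* and *Ctsr*, while only *Prl2c3* and *Prl2c2* are filled above 0 for MBD2a.

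The MBD2t line was close to *Mbd3* KO in its calls against WT, with somewhat lower levels. Against WT, 20 of the 27 tested members were called higher, where 18.2% of all genes were, and 1 (*Cts8*) was called lower, where 15.1% of all genes were. The higher genes were 16 Prl genes with *Prl7b1* among them, *Psg19*, *Ctsj*, *Ctsq* and *Ctsr*, and the median log2 fold change of the tested members was 3.70 against -0.04 over all genes tested. The lower level of *Cts8* had a log2 fold change of -3.13 ± 1.00 (SE, edgeR adjusted p = 0.00922). Both comparisons use the same WT libraries, and the limit from the filter on low counts holds for both. Set directly against *Mbd3* KO, 1 member (*Psg17*) was called lower with a log2 fold change of -2.73 ± 0.54 (SE, edgeR adjusted p = 0.0371), where 0.0241% of all genes were called in either direction. An unadjusted p under 0.05 was found for 7 members and for 3.44% of all genes tested. The median log2 fold change of the tested members against *Mbd3* KO was -0.64, beside -0.01 over all genes tested. The Prl sums did not overlap, with 97.1 to 215 CPM in MBD2t and 222 to 286 CPM in *Mbd3* KO. DESeq2 called 0 members there, and *Psg17* lost its call in most other settings. In 7 of the 27 members all *Mbd3* KO libraries were above all MBD2t libraries, namely *Prl2c2*, *Prl3d3*, *Prl2a1*, *Prl5a1*, *Prl8a9*, *Psg17* and *Cts8*, beside 10.3% of all genes tested. The levels spread within the MBD2t line itself, where library s22 was the highest in 18 of the 26 members with at least 10 reads and the Prl sum differed more than 2-fold between libraries (97.1 to 215 CPM).

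In the MBD2a line, the members were far below *Mbd3* KO, while the neural markers were low in both lines. Against WT, 2 of the 27 tested members (*Prl2c2* and *Prl2c3*) were called higher, where 16.9% of all genes were, and 2 (*Cts8* and *Psg22*) were called lower, where 13.7% of all genes were. The log2 fold change of *Prl2c3* was 2.04 ± 0.68 (SE, edgeR adjusted p = 0.0164) and that of *Prl2c2* 2.04 ± 0.68 (SE, edgeR adjusted p = 0.0156), but the MBD2a library with the lowest level of each (0.576 and 0.518 CPM) was below the highest WT library (1.13 and 1.02 CPM). *Cts8* had a log2 fold change of -3.58 ± 1.15 (SE, edgeR adjusted p = 0.0104) and *Psg22* of -2.69 ± 1.08 (SE, edgeR adjusted p = 0.0379), and in both genes every MBD2a library was below every WT library. The 2 higher calls were lost without WT library s01 or s03 or without MBD2a library s15, and in a fit of only the 2 lines, and the call of *Psg22* was lost in that fit and without s03 or s15. *Ctsq* was the only 1 of the 27 in which all MBD2a libraries were above all WT libraries, as held for 27.8% of all genes tested, with a difference of 3.15 ± 1.42 (SE, edgeR adjusted p = 0.0612) that did not pass.

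Against *Mbd3* KO, 21 of the 27 tested members were called lower with MBD2a, where 4.4% of all genes tested were. The 21 were 15 Prl genes, *Psg17*, *Psg19*, *Psg22*, *Ctsj*, *Ctsq* and *Ctsr*. The log2 fold change was -6.45 ± 0.49 for *Prl3d1*, -5.18 ± 0.52 for *Prl2c3*, -4.17 ± 0.67 for *Prl7d1* and -3.47 ± 0.60 for *Ctsj* (SE, edgeR adjusted p = 1.1e-07, 4.11e-06, 0.000469 and 0.00093). Every *Mbd3* KO library was above every MBD2a library in 25 of the 27, the exceptions being *Psg16* and *Cts7*, and in 14.2% of all genes tested. The median log2 fold change of the tested members was -4.11, beside 0.02 over all genes tested. Some members passed the filter on low counts mainly through reads in *Mbd3* KO and MBD2t. *Prl8a9*, for example, had 32, 31 and 34 reads in *Mbd3* KO, none in WT and 0, 0 and 3 with MBD2a. The counts and median are thus partly set by the filter, and the shares of all genes are no neutral measure for them. Of the MBD2a libraries, s15 was the highest in 15 of the 16 members with at least 10 reads in the line, with a Prl sum of 15.8 CPM against 3.45 and 5.21 CPM. Without s15, 20 members were called lower than in *Mbd3* KO.

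In the lines with MBD3a, MBD3ΔMBD or MBD2aR181C, no member differed from WT past the thresholds. With MBD3a, edgeR called 0 of the 27 members and 0% of all genes, 0 members and 1.77% of all genes had an unadjusted p under 0.05, and DESeq2 called 0 members. With MBD3ΔMBD and with MBD2aR181C, edgeR called 0 of the 27 members where 0.0181% of all genes were called in either line. In each of these 2 lines 1 member had an unadjusted p under 0.05 (*Prl3d3* with MBD3ΔMBD and *Prl8a9* with MBD2aR181C), beside 7.16% and 3.95% of all genes, and DESeq2 called 0 members. The spread between libraries, each from a different clone, was wide in these lines, so the members' levels relative to WT are known only loosely. Differences between clones and between cultures cannot be told apart here. For *Prl2c3* the log2 fold change was -0.14 ± 0.91 with MBD3a, 0.32 ± 0.83 with MBD3ΔMBD and 0.19 ± 0.82 with MBD2aR181C.

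Against *Mbd3* KO, 20 members were called lower with MBD3a (18.9% of all genes), 20 with MBD3ΔMBD (20.9%) and 20 with MBD2aR181C (18.1%). The limit from the filter on low counts, given for MBD2a, holds for these counts too. For *Prl3d1* the log2 fold change was -6.35 ± 0.50 (SE, edgeR adjusted p = 2.22e-08) with MBD3a, -5.44 ± 0.44 (SE, edgeR adjusted p = 2.16e-08) with MBD3ΔMBD and -7.29 ± 0.52 (SE, edgeR adjusted p = 6.62e-09) with MBD2aR181C. *Cts7* and *Cts8* went the other way and were called higher than in *Mbd3* KO with MBD3a (13.5% of all genes higher) and with MBD2aR181C (13% of all genes higher). *Cts7* had a log2 fold change of 3.3 ± 1.30 (SE, edgeR adjusted p = 0.0334) with MBD3a and 3.79 ± 1.16 (SE, edgeR adjusted p = 0.00794) with MBD2aR181C, and *Cts8* of 2.0 ± 0.77 (SE, edgeR adjusted p = 0.029) and 2.05 ± 0.73 (SE, edgeR adjusted p = 0.0191). The other 2 MBD3a libraries beside s08 had 0.0694 to 0.174 CPM of these genes, within or near the *Mbd3* KO range, and both MBD3a calls were lost without s08 and also without *Mbd3* KO library s04 or s05 (*Cts7* also without s06). With MBD2aR181C the call of *Cts8* was lost without s04, s05 or s20.

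The MBD2aΔGR line had the lowest levels. Of the 27 tested members, 1 (*Cts8*) was called lower than in WT, where 2.47% of all genes were. By edgeR or DESeq2 0 were called higher. As edgeR called 446 of 16582 genes higher, 0 of 27 is near the share of all genes. *Cts8* had a log2 fold change of -4.39 ± 1.33 (SE, edgeR adjusted p = 0.0403). In 12 of the 27 members every MBD2aΔGR library was below every WT library, which held for 9.46% of all genes tested. The median log2 fold change of the tested members was -2.46, against -0.01 over all genes tested. At 1.41 to 2.62 CPM for all 46 members together, or 46 to 88 reads per library, the depth left little to compare. An unadjusted p under 0.05 was found for 7 of the 27 members, a share near the 26.6% of all genes tested. DESeq2 called 10 members lower, *Prl7d1*, *Prl2a1*, *Psg29* and *Psg22* among them, and 3.13% of all genes tested. Against *Mbd3* KO 23 members were called lower, where 15.3% of all genes were, with *Prl2c3* at -8.65 ± 0.70 (SE, edgeR adjusted p = 4.68e-08). This count too is partly set by the filter on low counts.

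Within a line the libraries differed widely for several members. Of the 27 tested members, 15 had their highest library in *Mbd3* KO, 5 in MBD2t, 6 in library s08 of MBD3a and 1 (*Psg16*) in MBD2aΔGR. The 6 were *Psg29*, *Psg22*, *Prl6a1*, *Prl7b1*, *Cts7* and *Cts8*. In MBD3a, s08 was the highest library for all 22 members with at least 10 reads in that line, and its Psg sum of 14.7 CPM was the highest of the 24 libraries. The same libraries stood out in several members at once: s12 was the highest MBD3ΔMBD library in 18 of 22 members with at least 10 reads, and s02 the highest WT library in 11 of 16. The libraries of these lines stem from different clones. *Prl7d1* and *Psg29* can be read side by side, as in the MBD3a libraries with 0.489, 4.51 and 0.937 CPM of *Prl7d1* and 0.196, 11.7 and 0.660 CPM of *Psg29*. The 3 MBD3a libraries held 29752461 to 32118099 reads, and *Mbd3* in s08 was 168 CPM against 193 and 198 CPM in the others.

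**Figure D4:**
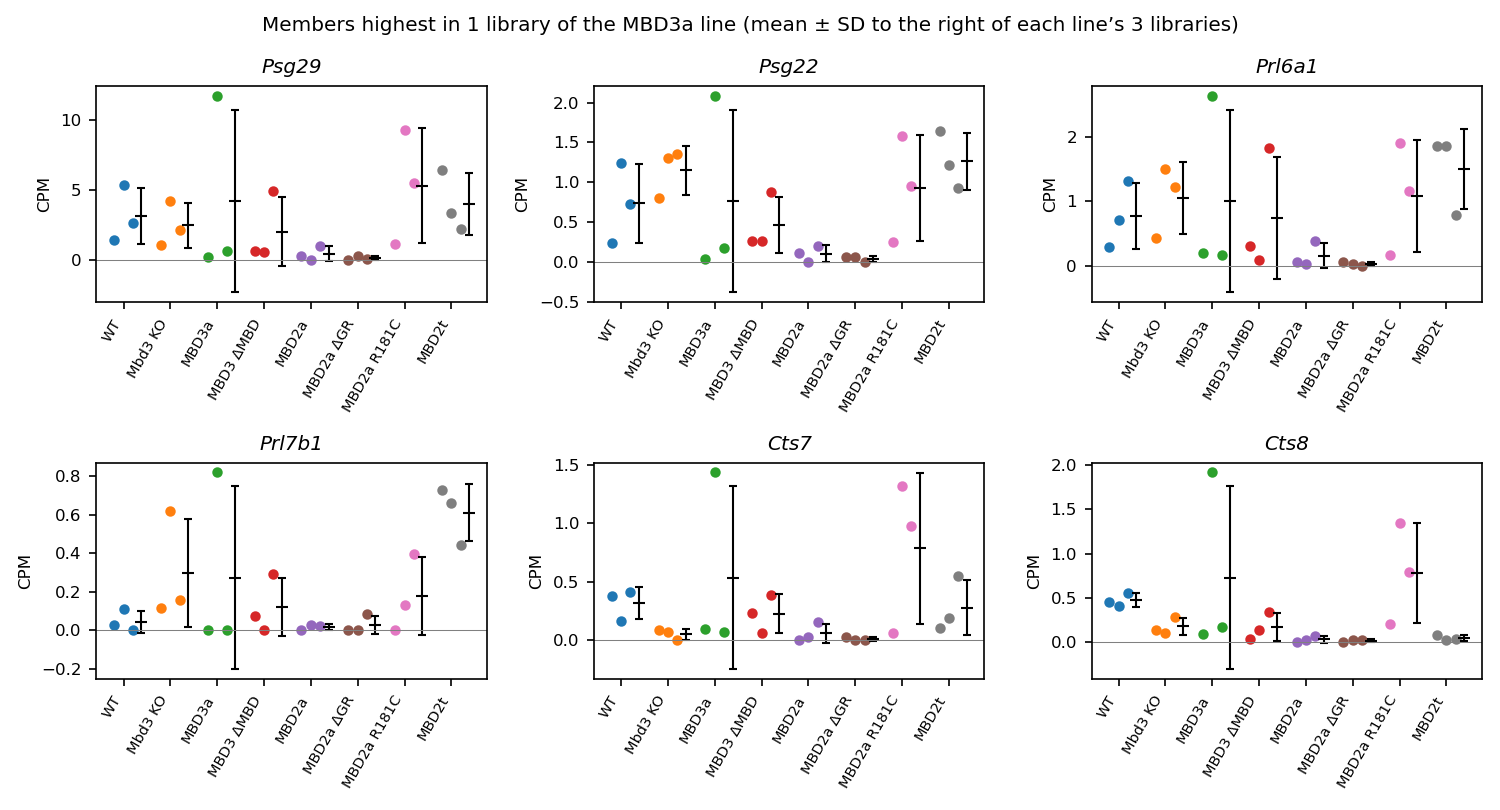
Level in CPM of the 6 members with their highest library in MBD3a, with a point per library and the mean with its SD beside the 3 libraries of each line. In each panel 1 MBD3a point stands far above the other 2, as in *Psg29* with 11.7 CPM against 0.196 and 0.660 CPM, and in *Psg29* and *Psg22* the MBD2a points lie below the WT points.

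All members lie in clusters, given here on mm9. The main Prl cluster spans chr13:27186081-28243480 with 22 members, *Prl2c3*, *Prl2c2* and *Prl2c5* lie apart at chr13:12883089-13284190, the 8 cathepsins at chr13:61101639-61671426, all on the minus strand, and the Psg genes at chr7:17659389-19406956. No member overlaps another gene on the opposite strand. Neighbours of the clusters were named after their values were seen, and are to be read against the 19.6% of all genes called higher. Within 1000 kb of the main Prl cluster 2 other genes were tested in *Mbd3* KO against WT, of which 0 were called higher by edgeR and 1 (*Sox4*) lower. Around the 3 Prl2c genes 3 of 14 tested neighbours (*Nid1*, *Ryr2* and *Lgals8*) were called higher and 1 (*Gng4*) lower, and around the cathepsins 0 of 9 higher and 1 (*Gas1*) lower. Around the Psg genes 19 of 79 were called higher and 10 lower, and the higher ones included *Ceacam3*, a relative of the Psg genes inside the cluster. The median deviation of the genes of chromosome 13 in a library from the other libraries of its line was between -0.048 and 0.045 on the log2 scale, and that of chromosome 7 between -0.046 and 0.070.

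The sequences before the starts of some members are printed to show how far members that rose together share them. RefSeq promoters on GRCm38.p6 (250 bases before to 50 after the start) were found for 39 of the 46 members by symbol, among them 21 Prl, 10 Psg and 8 cathepsin genes. GATAA was searched as a motif of GATA factors and TGANTCA as a motif of AP-1, both on either strand, and the motifs do not overlap in the promoters shown. GATAA was found in 61.9% of the Prl, 90% of the Psg and 12.5% of the cathepsin promoters, against 25.4% of all 32841 promoters. TGANTCA was found in 42.9% of the Prl, 30% of the Psg and 0% of the cathepsin promoters, against 7.81% of all. The promoters were poor in CpG, the site that the methyl-CpG binding domain of MBD2 recognises when it is methylated, with a median of 2 CpG (0 to 5) in the 39 against 7 in all promoters. Methylation was not measured here. Base composition differed too, with a median GC of 40.7% in the Prl, 49.3% in the Psg and 45.7% in the cathepsin promoters against 52.7% in all. Counts of motifs and of CpG depend on base composition, and promoters of like composition were not compared. Duplicated members share ancestry, so their promoters do not count as separate cases.

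Shown here are the 250 bases before the start, 5′ to 3′ on the strand of the gene, with either motif in capitals (TTATC is GATAA on the other strand). *Prl3d1* (chr13:27093939-27094188, plus strand), *Prl2c3* (chr13:12800080-12800329, minus strand), *Prl7d1* (chr13:27716738-27716987, minus strand) and *Ctsj* (chr13:61005926-61006175, minus strand) were high in *Mbd3* KO and MBD2t, and *Psg29* (chr7:17203227-17203476, plus strand) was not.
Prl3d1: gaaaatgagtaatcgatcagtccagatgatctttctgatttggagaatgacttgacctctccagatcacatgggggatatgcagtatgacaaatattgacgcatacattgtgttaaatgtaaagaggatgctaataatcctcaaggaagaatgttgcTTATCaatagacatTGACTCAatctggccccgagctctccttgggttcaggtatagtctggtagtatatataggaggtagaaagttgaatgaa
Prl2c3: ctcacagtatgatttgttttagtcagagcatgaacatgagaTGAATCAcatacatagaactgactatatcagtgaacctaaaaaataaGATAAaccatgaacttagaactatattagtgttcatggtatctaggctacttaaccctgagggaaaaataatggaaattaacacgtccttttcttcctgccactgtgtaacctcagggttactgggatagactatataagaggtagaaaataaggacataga
Prl7d1: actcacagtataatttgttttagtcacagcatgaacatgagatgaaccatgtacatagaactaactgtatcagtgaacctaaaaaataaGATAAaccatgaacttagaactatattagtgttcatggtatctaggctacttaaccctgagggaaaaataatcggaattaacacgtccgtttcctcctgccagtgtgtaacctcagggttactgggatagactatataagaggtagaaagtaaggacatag
Ctsj: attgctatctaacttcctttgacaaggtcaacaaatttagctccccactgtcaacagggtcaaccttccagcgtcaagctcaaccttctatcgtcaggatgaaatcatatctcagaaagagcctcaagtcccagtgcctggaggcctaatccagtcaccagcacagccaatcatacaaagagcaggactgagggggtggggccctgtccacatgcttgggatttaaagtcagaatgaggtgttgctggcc
Psg29: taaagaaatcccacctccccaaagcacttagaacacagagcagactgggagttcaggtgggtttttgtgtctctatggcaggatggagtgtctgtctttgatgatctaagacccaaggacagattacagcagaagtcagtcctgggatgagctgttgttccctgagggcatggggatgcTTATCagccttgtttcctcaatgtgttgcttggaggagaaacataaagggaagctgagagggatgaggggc

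In these windows GATAA began at base -93 from the start in *Prl3d1*, -162 in *Prl2c3*, -161 in *Prl7d1* and -71 in *Psg29*, and TGANTCA began at -79 in *Prl3d1* and -209 in *Prl2c3*. The promoters of *Prl2c3* and *Prl7d1* were 95% identical over 299 aligned bases although the genes lie in different clusters, and *Prl2c3* and *Prl2c5* were 96% identical. *Prl3d1* and *Prl2c3*, which had a like pattern over the 8 lines, were 59% identical. *Psg29* holds a GATAA and did not rise, and *Ctsj* holds neither motif in this window and rose. These matches describe letters and do not show that a factor binds.

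Genes that work with these families, like the cell type markers, were counted from lists chosen with earlier results of these data known. Their counts are therefore not independent of these data. Of 7 tested genes of prolactin reception, 2 were called higher in *Mbd3* KO and 0 lower, where 19.6% of all genes were higher and 14.2% lower. *Prlr*, the receptor of prolactin and placental lactogens, stood at 0.644 ± 0.314 CPM in WT, 4.09 ± 1.6 CPM in *Mbd3* KO, 3.76 ± 3.53 CPM with MBD2a and 3.48 ± 0.724 CPM with MBD2t (mean ± SD, n = 3). Its log2 fold change was 2.65 (edgeR adjusted p = 0.0223) in *Mbd3* KO and 2.55 (edgeR adjusted p = 0.0311) with MBD2a. Its level varied widely in MBD2a, with 2.82, 0.795 and 7.67 CPM, and in MBD2aΔGR, with 0.768, 0.864 and 13.5 CPM, where it was not called. *Stat5a*, a transcription factor that the receptor activates, had 1.06 (edgeR adjusted p = 0.00276) in *Mbd3* KO, whereas its paralogue *Stat5b* stood at -0.87 (edgeR adjusted p = 3.51e-05) and the kinase *Jak2* at 0.27 (edgeR adjusted p = 0.0636), both short of the thresholds. Pituitary prolactin, *Prl*, was at 0 in every WT and *Mbd3* KO library.

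Of 9 tested genes in a list of *Ceacam* genes and *Cd9*, 7 were called higher in *Mbd3* KO and 0 lower (19.6% and 14.2% of all genes). With MBD2a 6 were higher and 2 lower (16.9% and 13.7% of all genes). *Cd9*, the cell surface receptor of PSG17, stood at 31.9 ± 20.1 CPM in WT, 141 ± 40.8 CPM in *Mbd3* KO and 112 ± 19.5 CPM with MBD2a. *Ceacam1* had a log2 fold change of 2.58 (edgeR adjusted p = 0.00123) in *Mbd3* KO, *Ceacam20* of 3.06 (edgeR adjusted p = 0.000739) and *Ceacam3* of 4.32 (edgeR adjusted p = 0.000308). These relatives of the Psg genes were thus called higher where most tested Psg genes were not. *Ceacam9* and *Ceacam15*, named after their values were seen, were not called in *Mbd3* KO, with log2 fold changes of -0.53 and -0.92. They were the 2 called lower with MBD2a than in WT, with -2.87 and -3.58. *Ceacam3* alone of the 9 was called lower with MBD2a than in *Mbd3* KO, with -2.61 (edgeR adjusted p = 0.0236), where 4.4% of all genes were.

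Of 11 tested cathepsins made by many cell types, 6 were called higher in *Mbd3* KO and 1 lower (19.6% and 14.2% of all genes). With MBD2a 4 were higher and 1 lower (16.9% and 13.7% of all genes). *Ctsb*, a lysosomal protease, stood at 180.0 ± 40.4 CPM in WT, 791 ± 183 CPM in *Mbd3* KO and 525 ± 165 CPM with MBD2a. *Ctsl*, a widely expressed relative of the placental cathepsins, had a log2 fold change of 1.01 (edgeR adjusted p = 0.0215) in *Mbd3* KO and 0.83 (edgeR adjusted p = 0.0571) with MBD2a, and *Ctsc* had 2.26 (edgeR adjusted p = 0.0417) in *Mbd3* KO. With MBD2a against *Mbd3* KO, 0 of the 11 were called by edgeR, whereas 3 of the 5 tested placental cathepsins were called lower. Over all 16582 genes tested, 4.4% were called lower there and 142 genes higher, so 0 of 11 is near the share of all genes. Of 5 tested inhibitors of cysteine cathepsins, *Cstb* and *Cst6* were called higher in *Mbd3* KO, with 1.92 (edgeR adjusted p = 0.000122) and 2.92 (edgeR adjusted p = 0.00012), and *Cst3* had 0.26 (edgeR adjusted p = 0.601). With MBD2a the inhibitors *Ctla2a* and *Ctla2b*, which resemble the cathepsin propeptide and were picked for mention after their values were seen, were called lower than in WT, with log2 fold changes of -3.89 and -3.84.

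Markers of trophoblast moved with the members in part. All 8 trophoblast stem and progenitor markers were called higher in *Mbd3* KO, and 6 of the 8 with MBD2a, where 19.6% and 16.9% of all genes were. Their sum was 60.5 to 85.1 CPM in WT libraries, 429 to 619 CPM in *Mbd3* KO, 410.0 to 459 CPM with MBD2t and 179 to 360.3 CPM with MBD2a. *Eomes*, a regulator of trophoblast stem cells, had a log2 fold change of 4.22 (edgeR adjusted p = 4.64e-05) in *Mbd3* KO and 3.55 (edgeR adjusted p = 0.000379) with MBD2a, and *Tfap2c*, which acts in the same cells, had 3.78 (edgeR adjusted p = 0.000135) and 2.52 (edgeR adjusted p = 0.0035). Of 12 tested giant cell and spongiotrophoblast markers, 8 were called higher in *Mbd3* KO and 0 lower by edgeR, and with MBD2a 7 were higher and 1 lower. Lower calls were made for 14.2% of all genes in *Mbd3* KO and 13.7% with MBD2a. Their sum was 459.5 to 1020 CPM in WT libraries, 4655 to 6671 CPM in *Mbd3* KO, 4496 to 4909 CPM with MBD2t and 1079 to 3803 CPM with MBD2a. No marker of this list was at 0 in all libraries of a line. In every line most of the sum was *Peg10*, an imprinted gene of placenta, so the sum largely follows 1 gene. The mean of *Peg10* was 599 CPM in WT, 4381 CPM in *Mbd3* KO, 3977 CPM with MBD2t and 1716 CPM with MBD2a. *Hand1*, which drives giant cell formation, stood at 2.72 ± 1.51 CPM in WT, 105 ± 19.5 CPM in *Mbd3* KO and 8.24 ± 10.7 CPM with MBD2a. With MBD2a it was called lower than in *Mbd3* KO with a log2 fold change of -3.66 (edgeR adjusted p = 0.00291). *Tpbpa*, the defining marker of spongiotrophoblast, named after its values were seen, had a mean of 2.06 CPM in WT and 4.44 CPM in *Mbd3* KO, a difference that was not called.

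The trophoblast markers and Prl members of single libraries can be set side by side. MBD2a library s15 had 3803 CPM of the giant cell and spongiotrophoblast markers and 15.8 CPM of Prl members. In this and the other libraries named here the marker sum is mostly *Peg10*, so like sums need not mean like levels of the other markers. *Mbd3* KO library s05 had 4655 CPM of these markers and 239 CPM of Prl members. MBD2t library s24, with 4496 CPM of the markers, had 97.1 CPM of Prl members. The other 2 MBD2a libraries had 1284 and 1079 CPM of the markers with 3.45 and 5.21 CPM of Prl members, and WT library s02 had 1020 CPM with 8.83 CPM. The part of cell composition in these differences was not tested. Of all genes tested, 19.6% were called higher in *Mbd3* KO, 16.9% with MBD2a, 18.2% with MBD2t and 446 of 16582 with MBD2aΔGR. Of 12 endoderm markers, 2 were called higher in *Mbd3* KO, 8 with MBD2a and 11 with MBD2aΔGR. In MBD2aΔGR the sum of the endoderm markers was 17297 CPM in library s18 but 1169 and 992 CPM in the others, while most members were low in all 3 libraries. Of 6 pluripotent cell markers all 6 were called higher in *Mbd3* KO and in MBD2t and 5 with MBD2a, and of 10 labyrinth markers 9 were higher in *Mbd3* KO and in MBD2t and 6 with MBD2a.

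**Figure D5:**
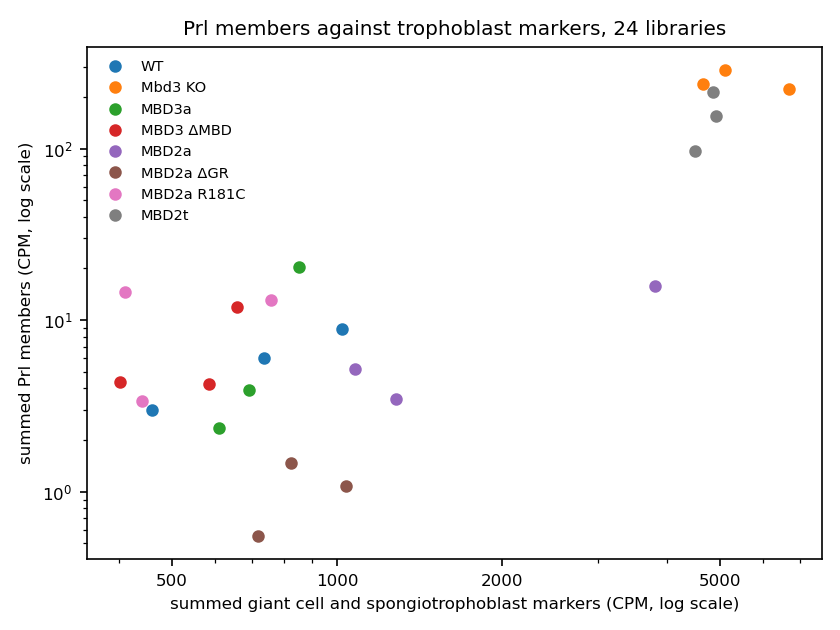
Summed Prl members against summed giant cell and spongiotrophoblast markers, both in CPM on log axes, with a point for each of the 24 libraries coloured by line. Most of the marker sum is *Peg10* in every line. *Mbd3* KO and MBD2t stand at the upper right, 1 MBD2a library stands at 3803 CPM of markers with 15.8 CPM of Prl members, and the MBD2aΔGR points are lowest at 0.553 to 1.46 CPM of Prl members.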

How the data were processed

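The authors made directional poly(A) libraries, sequenced them single-end on a NovaSeq, trimmed reads with Trim Galore, aligned them with STAR and counted them per gene with QuasR against GENCODE genes on mm9. The deposited table holds raw read counts per gene for 24 libraries, with 0 unused sample columns. The strand setting and the treatment of reads with several matches are not given in the sources used here. ChIP samples were not analysed here.

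Counts were fitted in R 4.3.3 with edgeR 4.0.16 (limma 3.58.1): filterByExpr by line kept 16582 of 25400 genes, libraries were scaled by TMM, and 1 model of the 8 lines gave 13 comparisons by the quasi-likelihood F test, without a replicate block. A gene was called at a Benjamini-Hochberg adjusted p under 0.05 over all genes tested with an absolute log2 fold change above 1. The SE of each log2 fold change was its size divided by the square root of F. CPM used TMM-scaled library sizes. Library totals were 27993858 to 49392806, and the floors in reads cover counting error only. The SE comes from the quasi-likelihood F test and so also includes the spread between libraries. The fit was tested on simulated data. The spread was estimated over all lines, while MBD2t is represented by 1 clone.

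Members and lists were chosen with earlier results of these data known. Values in every library were given for at most 8 Prl, 5 Psg and 5 cathepsin members, those with the highest mean CPM in the line where they are highest, first among those at 1 CPM in 3 libraries and then down to a line mean of 0.1 CPM. Members called against WT in the direction opposite to *Mbd3* KO, and up to 4 genes per list (the 2 with the highest level and the 2 with the largest called change), were also named. Alternatives were DESeq2 1.42.0, other scalings, filters, tests and sets of lines, and each library left out. The share of all genes called by DESeq2 was taken only for lower calls in MBD2aΔGR against WT, so its other counts of members stand without one.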

Additional observations from a re-analysis of the deposited data

How the results depend on the processing

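The 20 calls in *Mbd3* KO against WT ranged from 15 with a filter of 1 CPM in 3 libraries, which left 5 of them untested, to 25 without a filter, and from 20 to 22 with 1 library left out. The 1 CPM count of 18 members became 24 at 0.5 CPM. In MBD2a against WT the 4 calls became 2 in a fit of only these lines, 0 with glmTreat, and 2 to 5 with 1 library left out. In MBD2aΔGR against WT the 1 call became 0 without the MBD2t line, with the 1 CPM filter and with glmTreat, 3 with the legacy test, 10 with DESeq2, and 0 to 1 with 1 library left out (0 without s01, s02, s17 or s18). In MBD2t against *Mbd3* KO the 1 call became 0 in a fit of only these lines, with library size only, with the 1 CPM filter, without a filter, with the legacy test, with glmTreat and with DESeq2, and 0 to 3 with 1 library left out (3 without s04, and 0 without any other). The causes were not tested.

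*Cts8* in *Mbd3* KO against WT was -1.38 (edgeR adjusted p = 0.0297) in a fit of only these lines. With 1 library left out, log2 fold changes that were not called changed sign for *Psg16* (from -0.28 without s06 to 0.50 without s03, also -0.15 without s01 and -0.23 without s02) and *Psg29* (from -0.96 without s05 to 0.31 without s02, also 0.04 without s04). Without *Prl2c3*, the Prl sum in *Mbd3* KO was 169.1 CPM. Without *Psg29*, the Psg sum was 1.22 CPM in WT, 2.63 CPM in *Mbd3* KO, 1.64 CPM with MBD2aR181C and 2.24 CPM with MBD2t. Without *Ctsj*, the cathepsin sum was 0.908 CPM in WT, 7.38 CPM in *Mbd3* KO, 0.698 CPM with MBD3ΔMBD, 0.0683 CPM with MBD2aΔGR and 4.82 CPM with MBD2t. No paired analysis was possible because the columns carry no replicate numbers.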
